A study of Mus musculus with 20 samples.

Results

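The libraries compared here were chosen by how much mitochondrial ribosomal RNA (rRNA) they held. For each library of the series the log2 RPKM values of mt-Rnr1 and mt-Rnr2, the genes of the small and the large rRNA of the mitochondrial ribosome, were averaged into a score. Within the 10 lumbar and within the 10 sacral libraries, the 3 with the highest and the 3 with the lowest score were taken. This gave 6 high and 6 low libraries of 20, and 8 libraries were in neither class. The nuclear genome was then compared between the classes over 13462 genes whose mean over the 20 libraries was at least 0 on the log2 RPKM scale (reads scaled to gene length and library size), with the level of the ganglia as a term in the model.

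The series profiled dorsal root ganglia (DRG), where sensory neurons and their satellite glia sit beside the spinal cord, taken whole from C57Bl6 mouse embryos at E18.5. Each of 10 donor embryos, 5 males and 5 females, gave 1 lumbar library (ganglia L4-5) and 1 sacral library (ganglia L6-S1), with no treatment or engineered allele in any group. The high class held the lumbar libraries of donors M5, F7 and F8 and the sacral libraries of M5, F7 and F9. The low class held the lumbar libraries of M8, M3 and F9 and the sacral libraries of M1, M3 and F3. The high class thus had 4 female and 2 male libraries from 4 donors, and the low class had 2 female and 4 male libraries from 5 donors. Donor F9 was in the low class at the lumbar and in the high class at the sacral level. Donors M5, F7 and M3 each gave 2 libraries to 1 class, so the libraries of a class are not all independent. Whole ganglia were homogenised, so fewer cells of a type and less RNA per cell cannot be told apart in these values.

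Mitochondrial DNA is transcribed from both strands into long precursors that are cut into rRNA, messenger RNA (mRNA) and transfer RNA, and its rRNA is abundant in all cells that respire. Nuclear DNA gives transcripts that are spliced and exported to the cytoplasm, but some stay in the nucleus: long noncoding RNAs such as Malat1, the small RNAs of the spliceosome, and the small nucleolar RNAs (snoRNAs) that guide chemical modification of rRNA. Most snoRNAs and many microRNAs of mammals lie inside introns of host genes and are cut out of the host's primary transcript. Neurons of the DRG carry long axons that leave the ganglion.

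The score ran from 17.03 to 18.37 in the high class and from 15.52 to 16.03 in the low class. At the lumbar level the lowest high library scored 17.21 (F8) and the next library down, which was in neither class, 16.59 (M7). The highest low library there scored 16.03 (M8) and the next one up 16.07 (F3). At the sacral level the lowest high library scored 17.03 (F9), with F10 just outside at 16.92, and the highest low library 15.98 (M1), with M7 just outside at 16.62. These values chose the classes and are given as a description. As a share of the reads of a library, mitochondrial rRNA took 40.1% to 61.4% in the high class (median 47.2%), 18.1% to 24.4% in the low class (median 21.9%) and 23.6% to 38.3% in the others (median 30.8%). The shares of the high and low classes did not overlap, and mitochondrial rRNA formed a substantial part of the RNA sequenced in every library.

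**Figure D1:**
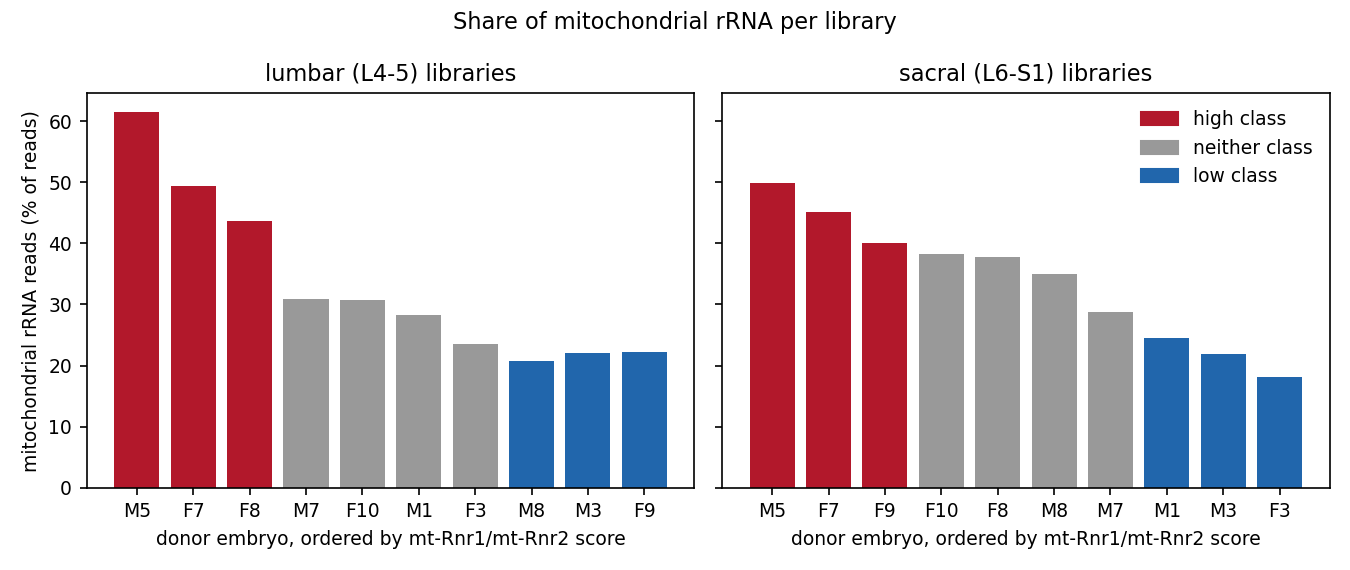
Bars give the percentage of reads from mt-Rnr1 and mt-Rnr2 in each of the 20 libraries, with lumbar libraries on the left and sacral libraries on the right, ordered by score and coloured by class. The 6 high libraries lie between 40.1% and 61.4%, the 6 low libraries between 18.1% and 24.4%, and the remaining 8 fill the range between them.

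The rest of the mitochondrial genome moved with the rRNA. All 13 mitochondrial mRNAs had higher class means in the high than in the low libraries, by 0.97 (mt-Nd3, a complex I subunit) to 2.03 (mt-Nd6, a complex I subunit encoded on the other strand) on the log2 scale, with a median of 1.69. For 12 of the 13 the 6 high and 6 low values did not overlap, and mt-Nd3 was the exception. mt-Cytb, the cytochrome b subunit of complex III, ranged from 12.40 to 14.03 in the high class (median 12.85) and from 11.11 to 11.63 in the low class (median 11.24). All but mt-Nd6 share precursor transcripts with the genes of the rule, and mt-Nd6 comes from the other strand of the same mitochondrial DNA. The differences of all 13 are given as a description. Per 100 reads of mitochondrial rRNA there were 8.52 to 13.9 reads of mitochondrial mRNA in the high class and 8.88 to 12.5 in the low class. That ratio overlapped between the classes, and as its denominator chose them, it was not tested.

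The depth and the detected genes were compared next. The total depth overlapped, with medians of 23284121 reads in the high class and 25516848 in the low class (exact permutation test within level, two-sided, p = 0.925). The lumbar high library of F8 had the most reads, 39257771, and without it the mean of the high class was lower by 3240130 reads (exact permutation p = 0.045). Reads from nuclear genes had medians of 10437901 in the high class and 19295651 in the low class. This follows from the share of mitochondrial reads that chose the classes and was not tested, but the nuclear genes together rest on fewer reads in the median high library. In spite of this the high libraries had more genes with a value, 22106 to 23768 against 21202 to 21964, without overlap (exact permutation p = 0.005, adjusted over 8 measures 0.01). This p is the smallest that the 400 permutations can give. The test takes the libraries as independent although some share a donor. With 1 mean per donor, the level mean taken off and F9 left out, which leaves 3 high and 4 low donors, the exact p was 0.0286, the smallest that its 35 permutations allow. At an equal depth of 7077383 nuclear reads, 20986 to 22400 genes were expected in the high libraries and 19448 to 19992 in the low libraries. Receptor genes known from the nose were among those detected more often. The 1672 annotated olfactory and vomeronasal receptor genes had reads in 37 to 46 members per library in the high class. In the low class it was 30 to 36, without overlap, although the median of nuclear reads was lower in the high class. The library with 46, lumbar F8, had 20561754 nuclear reads, within the 16618670 to 22386687 of the low class. The receptor counts were not set to an equal depth.

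By type of RNA, protein-coding genes took 90.1% to 93.5% of nuclear reads in the high class and 95.2% to 96.0% in the low class (exact permutation p = 0.005, adjusted 0.01). Long intergenic noncoding RNAs and processed transcripts together took 3.79% to 7.37% in the high class and 1.89% to 2.21% in the low class (p = 0.005 by the same exact test). Small nuclear and nucleolar RNA, together with the miscellaneous RNA type of the annotation, which holds 7SK, took 0.0404% to 0.0947% and 0.0151% to 0.0191% (exact permutation p = 0.005). None of these 3 shares overlapped between the classes, and over donors the exact p was 0.0286 for each. The share of pseudogenes overlapped (medians 1.87% and 1.66%, exact permutation p = 0.055), as did the shares of genes under 200 bases (0.840% and 0.640%, p = 0.545) and of the 100 most abundant genes (17.1% and 17.9%, p = 0.295).

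Across the nuclear genes, 5507 of 13462 (40.9%) passed an adjusted p of 0.05, of which 1740 (12.9% of those tested) were higher and 3767 (28.0%) lower in the high libraries. The median difference of all genes tested was -0.17 on the log2 scale, and the median size of a called difference was 0.71. The lower genes moved less far than the higher ones: 710 genes were more than 2-fold higher and 407 more than 2-fold lower, but 257 were more than 4-fold higher and 1 was more than 4-fold lower (ENSMUSG00000093745, which has no name in the annotation used). The 3 high and 3 low libraries were free of overlap at both levels, in 1 direction, for 3313 genes (24.6% of those tested), and all 6 high from all 6 low libraries for 2668 (19.8%). The sign was the same at the lumbar and the sacral level for 5506 of the 5507 called genes, with Gm10443 as the exception.

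The balance of higher and lower genes depended on the scaling. The deposited values give each library the same median over the genes it detects, and the high libraries detect more low genes. The median over all tested genes of the high minus the low class mean was -0.19 on the deposited scale, -0.09 with libraries centred on the tested genes, and 0.10 with libraries scaled to the summed RPKM of the tested genes. Higher genes made up 31.6% of the calls on the deposited scale, 39.6% after centring (2091 higher, 3185 lower) and 69.7% after scaling to the summed RPKM. With the summed RPKM 2661 genes (19.8%) were higher and 1156 (8.59%) lower. All 1740 higher calls remained, 1156 of the 3767 lower calls remained, and no called gene was called in the opposite direction. A voom fit on reads recovered from the values, scaled to nuclear reads, called 3768 higher and 1400 lower of 13112 genes. The differences below are on the deposited scale, and they read relative to a median gene at -0.17. Lower calls depended more on the scaling than higher calls, so most lists below have their counts under the summed RPKM beside their own.

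**Figure D2:**
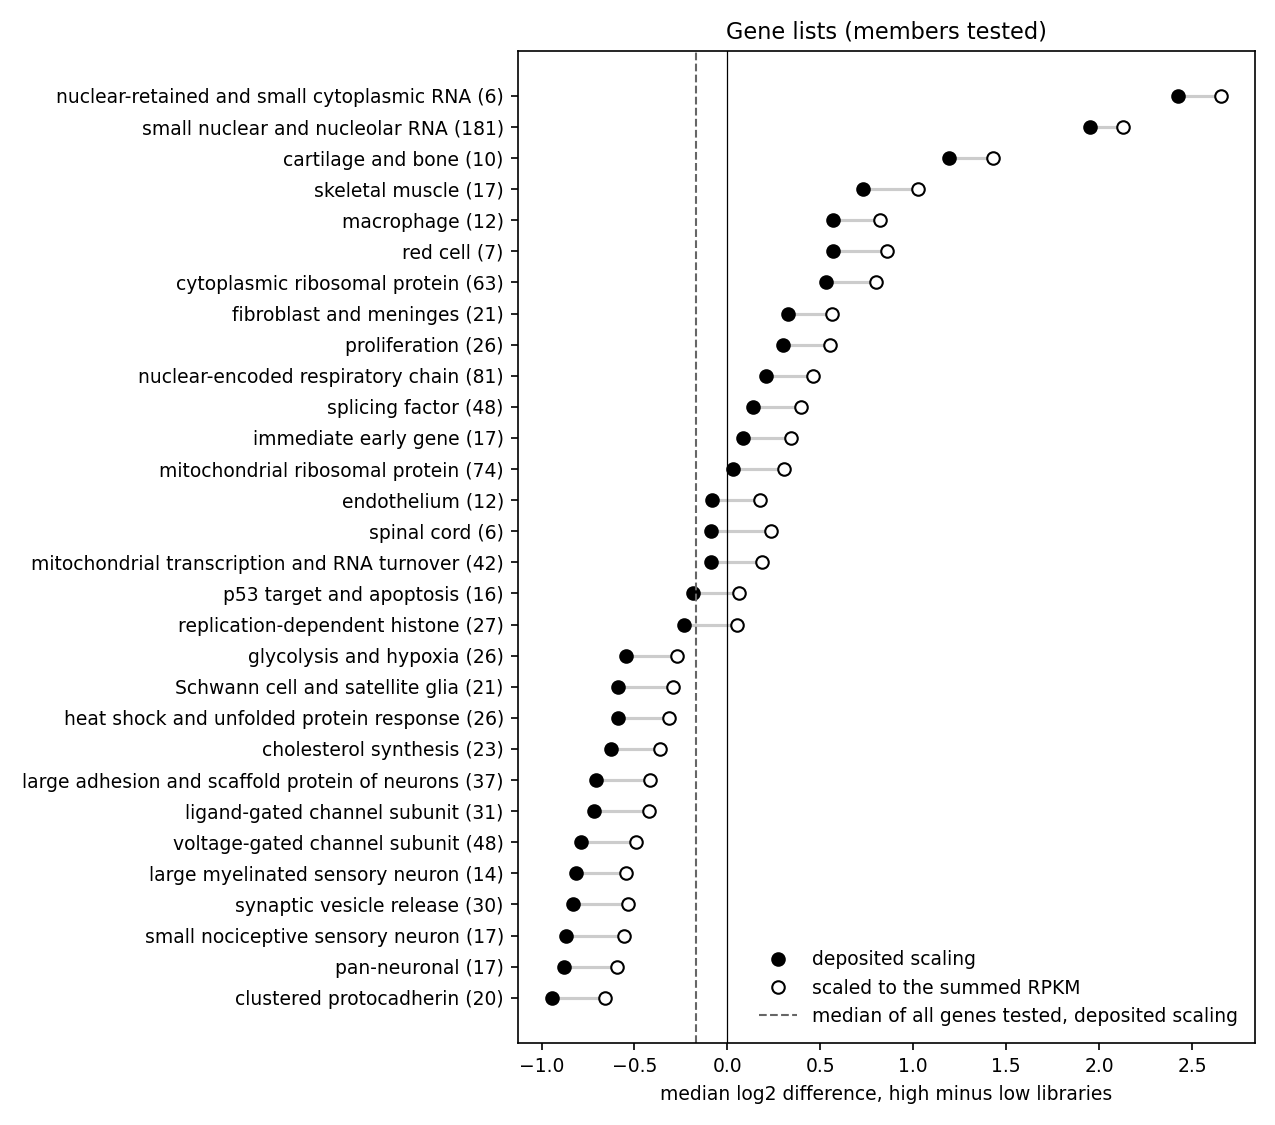
Each line is a gene list, with the number of members tested in parentheses, and the x axis gives the median log2 difference of the high minus the low libraries. Filled points use the deposited scaling, open points the scaling to the summed RPKM, and the dashed line marks the median of all genes tested at -0.17. Lists made after their values were seen are not shown. Among the lists shown, nuclear-retained RNA (2.43) and small nuclear and nucleolar RNA (1.95) lie farthest to the right. Clustered protocadherins (-0.94) and pan-neuronal genes (-0.88) lie farthest to the left.

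Listed long noncoding RNAs known to stay in the nucleus were higher in the high libraries. As whole types, long noncoding genes went both ways. Of 295 tested long intergenic noncoding genes 90 (30.5%) were called higher and 52 (17.6%) lower, with a median of 0.05. Of 321 processed transcripts 66 (20.6%) were higher and 63 (19.6%) lower, with a median of -0.07. Over all genes tested 12.9% were higher and 28.0% lower. All 6 tested of the 7 nuclear-retained and small cytoplasmic RNAs found among 15 listed were called higher, with a median of 2.43, and in each the classes did not overlap at either level. Malat1, a long noncoding RNA of nuclear speckles, ranged from 9.88 to 11.02 in the high libraries (median 10.29) and from 7.82 to 8.14 in the low libraries (median 7.94). Every high library thus lay above every low library, by a fitted 2.33 ± 0.19 (SE) on the log2 scale, 5.02-fold, with an adjusted p of 2.41e-05. Meg3, the maternally expressed noncoding RNA of the Dlk1-Dio3 imprinted domain, ranged from 4.80 to 5.72 in the high and from 2.33 to 3.10 in the low libraries, a difference of 2.52 ± 0.18 (adjusted p = 9.07e-06). Miat, a nuclear noncoding RNA of neurons, lay at 2.98 to 4.15 and 0.40 to 1.46, and differed by 2.77 ± 0.23. Snhg11, a spliced host transcript of snoRNAs that the annotation lists as protein coding, differed by 2.92 ± 0.23, with 4.33 to 5.75 in the high and 1.84 to 2.57 in the low libraries. The summed level of the list was 1077 to 2259 RPKM in the high and 276 to 330 RPKM in the low class. These RNAs lost no call when the libraries were scaled to the summed RPKM. Not all nuclear RNAs were called higher, as the RNase MRP gene differed by 0.26 and was not called. Of the snRNA genes that lie between other genes 0 of 7 were called (median 0.14). Some of these snRNA genes were blank in all 12 libraries and could not be called, so their count does not bear on nuclear RNA. Of 8 tested copies of the nuclear RNA 7SK, 6 were called higher, but most of these had a low-class mean under 0 (-2.06 to -0.51). They passed the filter through the high libraries. The most abundant copy, with a low-class mean of 5.70, differed by 0.05 and was not called, and the remaining copy lay at -0.05.

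Genes of the Dlk1-Dio3 domain and snoRNA host transcripts were listed after their values had been seen, so their counts are descriptions. These lists share members with the nuclear-retained list, among them Meg3, Rian and Snhg11, so their counts are not separate from those above. In the Dlk1-Dio3 domain 4 of 5 genes tested were called higher. Mirg, a precursor of many microRNAs, differed by 2.03 ± 0.25, Rtl1, a gene derived from a retrotransposon, by 2.14 ± 0.25, and Rian, a host of snoRNAs of the SNORD113 family, by 0.80 ± 0.12. Dlk1, a coding gene that is expressed from the paternal chromosome, ranged from 2.11 to 3.53 in the high and from 2.40 to 3.27 in the low libraries, and its difference was 0.01 ± 0.23 (adjusted p = 0.979). Rtl1 has microRNA genes on its opposite strand, and reads cannot be assigned between them by strand, since whether the counting used the strand is not stated. All 9 tested snoRNA host transcripts of 15 listed were called higher, with a median of 1.79. Gas5, a host transcript whose own open reading frame is short, ranged from 3.64 to 4.59 in the high and from 1.83 to 2.58 in the low libraries, and differed by 1.97 ± 0.18 (adjusted p = 4.01e-05).

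The small RNA genes themselves were the type most often higher. Of 148 tested snoRNA genes 94 were called higher and 1 lower (SNORA40, -0.96 ± 0.27), with a median difference of 1.99. The same counts were 15 and 1 (another copy of U6) of 33 small nuclear RNA (snRNA) genes (median 1.64) and 68 and 22 of 174 microRNA genes (median 0.54), against 1234 (10.7%) and 3419 (29.6%) of 11540 protein-coding genes (median -0.19). Many small RNA genes passed the filter through the high libraries alone. Of 2975 listed small nuclear and nucleolar RNA genes, 1382 had a value in some library and 181 were tested, and of these 99 had a low-class mean of at least 0. Among the 99, 55 were called higher and 2 lower, with a median of 1.59. These rises were mostly those of snoRNA genes. Of the snRNA genes among the 99, 1 of 2 in an intron of the same strand was called higher. The same held for 1 of 4 that overlap an exon, where 1 was lower. Of those in an intron of the opposite strand 0 of 2, and of those between other genes 0 of 6, were called. The library protocol was not one for small RNA, so reads in these genes need not come from the mature small RNA.

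The differences of noncoding genes went with where they lay. Genes inside an intron of another gene on the same strand were called higher in 98 of 138 cases and lower in 1 (Mir1224, -0.93), with a median difference of 2.21. Of the 63 of them with a low-class mean of at least 0, 38 were called higher and 1 lower (median 1.59). Genes inside an intron on the opposite strand were called higher in 39 of 61 cases and lower in 0 (median 2.08), and 10 of the 19 with a low-class mean of at least 0 were called higher (median 1.38). Noncoding genes between other genes were called higher in 39 and lower in 10 of 146 cases (median 0.14), and those that overlap an exon in 165 and 129 of 640 (median 0.03). With a low-class mean of at least 0 these counts were 22 and 10 of 123 (median 0.00) and 113 and 129 of 566 (median -0.08). Some genes between other genes were blank in all 12 libraries and could not be called, so the contrast with that group rests in part on genes without reads. Among the microRNAs, 31 of 46 in an intron of the same strand were higher and 1 lower (median 2.20), 14 of 20 in an intron of the opposite strand were higher (median 2.12), and 15 of 78 that overlap an exon were higher and 21 lower (median -0.23). Of those with a low-class mean of at least 0 the counts were 12 higher and 1 lower of 23 (median 0.97), 3 of 6 (0.87), and 10 higher and 21 lower of 71 (-0.28). Pseudogenes are left out of these counts, and those in introns of the same strand had a median of -0.13. The difference between positions is given as counts and medians and was not tested.

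The intronic small RNA genes were set beside the hosts that enclose them. The 72 tested snoRNA genes in an intron had a median difference of 2.08, and 67 of them lay above their host, while their 50 host genes had a median of 0.00, with 15 called higher and 12 lower. The 42 intronic microRNA genes with a tested host had a median of 2.25, 35 of them above the host, and their 39 hosts a median of -0.02. The 57 exonic microRNA genes with a tested host had a median of -0.24, close to the -0.20 of their 53 hosts. Many of these genes passed the filter through the high libraries, and those had to lie high. With a low-class mean of at least 0 there were 36 intronic snoRNA genes, 31 of them above their host, with a median of 1.59 against 0.18 for their 24 hosts. Of 20 such intronic microRNA genes 13 lay above their host (median 1.33 against 0.19), and of 51 such exonic ones 19 (median -0.28 against -0.21). These are descriptions and were not tested.

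**Figure D3:**
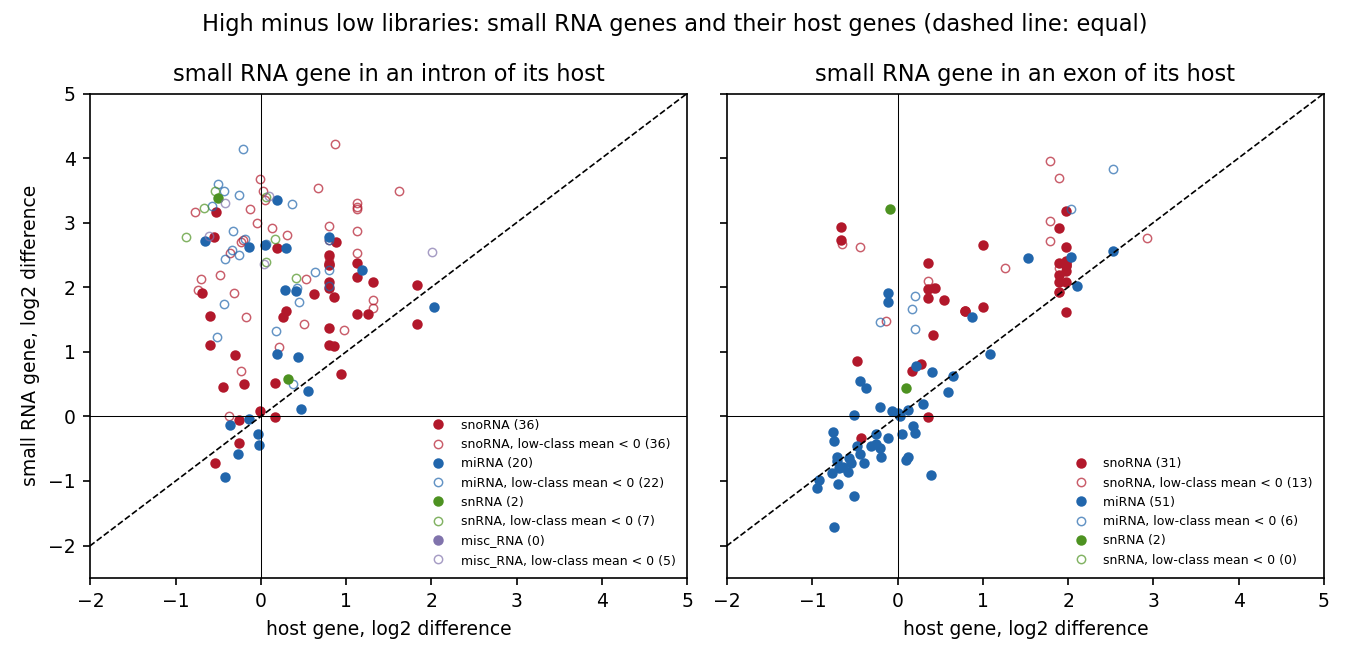
Each point is a small RNA gene, with the log2 difference (high minus low libraries) of its host gene on the x axis and its own difference on the y axis, for genes in an intron (left) and in an exon (right) of the host. Filled points have a low-class mean log2 RPKM of at least 0 and open points a lower one. Of the filled points, 31 of 36 intronic snoRNA, 13 of 20 intronic microRNA and 19 of 51 exonic microRNA genes lie above the dashed line of equal differences.

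The sequences of 4 intronic snoRNA genes and 1 intronic microRNA gene show the annotated stretches in which reads were counted. Where the reads lay within them was not examined. They were chosen to span hosts that were called higher (Rpl37, Rian), called lower (Ubap2) and not called (Rabggtb, Ugp2). They are from the NCBIM37 (mm9) genome and are written 5′ to 3′ on the strand of the gene. Capitals mark a TGATG within 25 bases of the start and a CTGA within 16 bases of the end, letters that belong to the C and D boxes of a snoRNA, or the 2 mature arms of the microRNA.
Snord72, chr15:5068404-5068484, plus strand, intron of Rpl37: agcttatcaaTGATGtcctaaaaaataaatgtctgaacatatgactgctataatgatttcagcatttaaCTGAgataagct
SNORD113, chr12:110874222-110874294, plus strand, intron of Rian: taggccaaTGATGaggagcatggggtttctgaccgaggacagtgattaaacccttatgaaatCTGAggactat
Snord45b, chr3:153573527-153573597, minus strand, intron of Rabggtb: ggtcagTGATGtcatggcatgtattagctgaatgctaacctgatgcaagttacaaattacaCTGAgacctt
SNORD121A, chr4:41150090-41150166, minus strand, intron of Ubap2: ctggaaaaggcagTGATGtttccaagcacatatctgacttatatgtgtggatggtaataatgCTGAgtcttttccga
Mir1933, chr11:21244591-21244678, minus strand, intron of Ugp2: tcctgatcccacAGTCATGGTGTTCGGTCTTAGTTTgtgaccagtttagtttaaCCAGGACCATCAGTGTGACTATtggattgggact

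Snord72 had values of 1.57 to 3.02 in the high libraries and was blank in 4 of the 6 low libraries, with 56 reads in all in the high and 4 in the low class. Its host Rpl37, a protein of the large ribosomal subunit, differed by 0.87 ± 0.14 (adjusted p = 0.00101), well below the 4.22 ± 0.48 of the snoRNA. SNORD113 rested on more reads, 905 and 209, and ranged from 5.90 to 6.76 in the high and from 3.50 to 4.33 in the low libraries, a difference of 2.50 ± 0.18 (adjusted p = 9.07e-06). SNORD113 is a family of similar copies, and only reads that map to 1 place were counted, so the value of a single copy is uncertain. Snord45b gave 68 and 4 reads and differed by 3.49 ± 0.31, while its host Rabggtb, a subunit of Rab geranylgeranyl transferase, differed by 0.02 ± 0.12 (adjusted p = 0.906). SNORD121A ranged from 2.94 to 4.46 in the high and from -0.80 to 1.54 in the low libraries (3.16 ± 0.29), while its host Ubap2, a ubiquitin-associated protein, fell by 0.53 ± 0.14 (adjusted p = 0.0109). Mir1933 had a mean of 1.46 ± 1.30 (SD, n = 6) in the high and -1.47 ± 2.14 in the low libraries, and differed by 2.87 ± 0.87 (adjusted p = 0.0192), while its host Ugp2, UDP-glucose pyrophosphorylase, differed by -0.32 ± 0.15 and was not called (adjusted p = 0.0964). Snord72, Snord45b and Mir1933 had low-class means of -2.03, -0.97 and -1.47. They passed the filter through the high libraries and had to lie high, so their contrast with their hosts is a description. Where libraries were blank, the size of the difference also depends on the value set for a blank. Calls were counted with and without both boxes. Of the tested snoRNA genes, 63 held both boxes in these windows, and 45 of them were higher and 0 lower (median 2.12), while 49 of the 85 without were higher and 1 lower (median 1.92). With a low-class mean of at least 0 these counts were 33 of 43 (median 2.03) and 20 higher and 1 lower of 42 (median 1.38). Among all 1552 annotated snoRNA genes 20.5% held both.

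Among the other noncoding genes that the naming rule picked, Snora44, an snoRNA that overlaps the host transcript Snhg12, differed by 3.96 ± 0.49 and Mir770, which overlaps Meg3, by 3.84 ± 0.36. AC155640.1 (4.13 ± 0.61) and F830001A07Rik (4.11 ± 0.65) have no role that is sure. Snora44, Mir770 and AC155640.1 had low-class means of -1.25, -0.87 and -0.43. They passed the filter through the high libraries and had to lie high, so their sizes do not compare with those of the falls. The copy of U6, the snRNA at the core of the spliceosome, at chr6:113010692-113010797 ranged from 3.54 to 4.92 in the high and from 0.33 to 1.11 in the low libraries (3.21 ± 0.22), but it overlaps Thumpd3 and has many near-identical copies, so its value is uncertain. The genes with the strongest fall among those that the annotation used does not list as protein coding fell by 1.29 to 1.45. 1700091E21Rik, which is antisense to St8sia3, fell by 1.34 ± 0.26 and Gm17456, antisense to the potassium channel gene Kcna6, by 1.29 ± 0.23, and strand does not separate either pair here. Tmem229a (-1.45 ± 0.36), Gm13703 (-1.35 ± 0.35) and Gm14881 (-1.34 ± 0.28) were the others. Tmem229a is named for a transmembrane protein, so its listed type is uncertain.

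Among protein-coding genes, the 10 largest rises that did not overlap at either level held 5 genes of secreted liver proteins. Alb, serum albumin, ranged from 4.55 to 7.71 in the high libraries (median 6.17) and from 1.77 to 3.92 in the low libraries (median 3.61), and differed by 2.71 ± 0.48 (6.56-fold, adjusted p = 0.00166). The fibrinogen chain genes Fgb and Fga differed by 3.05 ± 0.59 and 2.94 ± 0.46, Apoa1, the main apolipoprotein of high-density lipoprotein, by 3.02 ± 0.78, and Ahsg, fetuin-A, by 2.70 ± 0.47. Besides Snhg11, the remaining 4 were predicted genes, Gm11102 (4.42 ± 0.73, with 80 reads in the high and 2 in the low class), Gm17253 (8.02-fold), Gm9900 (2.84 ± 0.36) and Gm17722 (2.81 ± 0.38), of which the last overlaps Acaca on the opposite strand. A list of secreted liver proteins made after these values had been seen had 12 of 15 tested genes higher and 0 lower (13 higher on the summed RPKM scale), and among the 10 with a low-class mean of at least 0, 7 were higher. The summed level of all 31 genes of that list was 109.5 to 521.8 RPKM in the high and 42.0 to 66.7 RPKM in the low class. Afp, alpha-fetoprotein of the fetal liver, ranged from 2.51 to 4.86 and from -0.74 to 1.78, whereas Apoh, another liver plasma protein, differed by -0.04 ± 0.31 (adjusted p = 0.929). Alb was thus detected in every library, and most genes of the list were higher in the high class. Their part in the other differences was not tested.

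The 10 largest falls among coding genes held several genes of neurons. Vgf, the precursor of secreted neuropeptides, ranged from -1.71 to 1.16 in the high libraries (median 0.49) and from 1.54 to 2.66 in the low libraries (median 2.20), and fell by 1.77 ± 0.36, 3.42-fold, with an adjusted p of 0.0029. Slc17a7, the vesicular glutamate transporter VGLUT1, fell by 1.57 ± 0.36, Kcnj11, the pore subunit of ATP-sensitive potassium channels, by 1.59 ± 0.31, and Slc8a2, a sodium-calcium exchanger of neurons, by 1.55 ± 0.24. Nptx2, a secreted pentraxin of excitatory synapses, fell by 1.49 ± 0.26 and Pcdhb6, a clustered protocadherin, by 1.74 ± 0.31. The others were Zdhhc23, a palmitoyltransferase (-1.50 ± 0.37), Slc39a3, a zinc transporter (-1.46 ± 0.24), and the predicted genes Gm5423 (-1.59 ± 0.29) and Gm9726 (-1.43 ± 0.32). Each of the 10 was also lower after scaling to the summed RPKM.

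Genes of neurons were often lower. The counts below read against 28.0% lower of all genes tested, and against 57.9% lower (median -0.47) of the coding genes in the quintile of highest mean expression. All 17 tested pan-neuronal genes were called lower, with a median of -0.88, and 12 of the 17 were lower after scaling to the summed RPKM. Syt1, a calcium sensor of synaptic vesicles, ranged from 3.18 to 4.85 in the high libraries (median 4.22) and from 5.17 to 5.78 in the low libraries (median 5.37). It fell by 1.17 ± 0.24 (2.26-fold, adjusted p = 0.00278) without overlap. Nefm, the medium neurofilament chain, fell by 1.21 ± 0.25, Ina, the neurofilament chain alpha-internexin, by 0.93 ± 0.21, and Pou4f1, a transcription factor that defines sensory neurons, by 0.88 ± 0.17. Both classes expressed these defining markers strongly: the summed pan-neuronal level was 799 to 2309 RPKM in the high and 2360 to 4158 RPKM in the low class.

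Markers of both main sensory neuron types were mostly called lower. Of 17 tested small nociceptor genes, 13 were lower and 0 higher (median -0.87), and 8 were lower on the summed RPKM scale. Mrgprd, a receptor of nonpeptidergic nociceptors, ranged from 2.61 to 3.73 in the high and from 4.34 to 4.97 in the low libraries, and fell by 1.37 ± 0.19 (adjusted p = 0.000605). Scn10a, the sodium channel Nav1.8, fell by 0.96 ± 0.20, and Gfra2, the neurturin receptor, by 0.87 ± 0.16. Of 14 tested genes of large myelinated neurons, 9 were lower and 0 higher (median -0.81), and 4 were lower on the summed RPKM scale. Ret, the signalling receptor of the GDNF family, ranged from 3.09 to 5.01 and from 5.43 to 5.99 and fell by 1.39 ± 0.25, and Nefh, the heavy neurofilament chain, fell by 1.08 ± 0.22. The other 5 of these genes were not called, with Spp1, osteopontin, named after its value was seen, at 1.07 ± 0.67 (adjusted p = 0.217).

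Genes for release and excitability were counted in the same way. Of 30 tested genes of synaptic vesicle release 26 were lower and 0 higher (median -0.83, 16 lower on the summed RPKM scale), with Sv2a (-1.30 ± 0.18), Sv2c (-1.32 ± 0.21) and Syt2 (-1.24 ± 0.21), all vesicle membrane proteins, among them. Of 48 voltage-gated channel subunits 39 were lower and 0 higher (median -0.79, 19 lower on the summed RPKM scale). Kcna1, a potassium channel of the axon, ranged from 1.80 to 3.25 in the high and from 3.63 to 4.69 in the low libraries and fell by 1.17 ± 0.21. The pacemaker channel gene Hcn4 fell by 1.34 ± 0.22 and its relative Hcn3 by 1.04 ± 0.19. Of 31 ligand-gated channel subunits 22 were lower and 0 higher (median -0.72, and 9 lower with 1 higher on the summed RPKM scale), among them the nicotinic receptor subunits Chrnb2 (-1.25 ± 0.18) and Chrna7 (-1.10 ± 0.23). Clustered protocadherins, which give single neurons their surface identity, were lower in 17 of 20 cases (median -0.94, 9 on the summed RPKM scale). Large adhesion and scaffold proteins of neurons were lower in 23 of 37 and higher in 0 (median -0.70), and 12 were lower and 4 higher on the summed RPKM scale. Nrxn2, a presynaptic neurexin, fell by 1.24 ± 0.20 and the axonal adhesion protein gene Cntn1 by 1.31 ± 0.23.

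**Figure D4:**
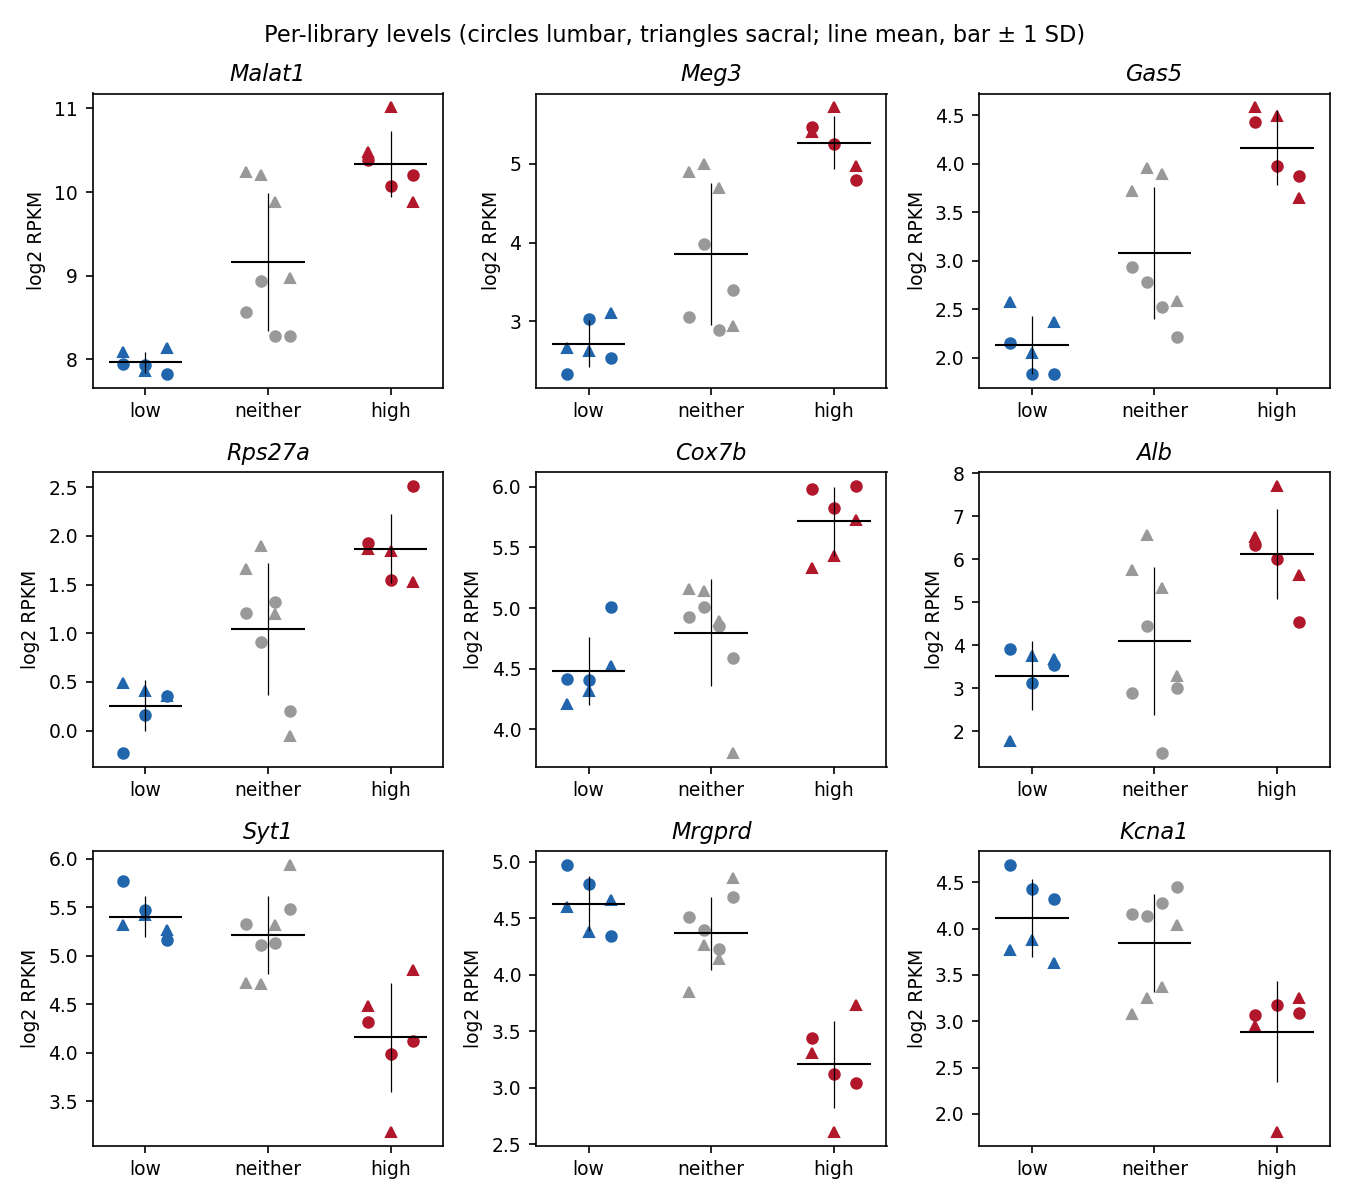
Points give the log2 RPKM of 9 genes in each library, for the 6 low, the 8 remaining and the 6 high libraries, with circles for lumbar and triangles for sacral libraries, a line at the mean and a bar of 1 SD to each side. Malat1, Meg3, Gas5, Rps27a, Cox7b and Alb are higher in every high than in every low library, and Syt1, Mrgprd and Kcna1 are lower. The sacral high library of donor F7 is the lowest point for Syt1 (3.18), Mrgprd (2.61) and Kcna1 (1.80).

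Library F7 of the sacral high class stood below the other high libraries for genes of neurons, as the plot of single genes shows. Without it all 17 pan-neuronal genes were still lower, with a median of -0.76, and the nociceptor list still had 13 lower (median -0.69). The voltage-gated channels had 37 lower without it (median -0.68) and the genes of vesicle release 26 (median -0.69). Over the fit as a whole, 4986 genes were called without it.

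Glial and lipid genes were also often lower, and their counts read against the same 57.9% lower in the quintile of highest expression. The lists of large myelinated neurons (9 of 14 lower) and of adhesion and scaffold proteins (23 of 37) were about as near to that share. Of 21 tested Schwann cell and satellite glia genes 12 were lower and 0 higher (median -0.59, and 6 lower with 1 higher on the summed RPKM scale). Pmp22, a protein of peripheral myelin, ranged from 6.61 to 7.27 in the high and from 7.48 to 7.83 in the low libraries and fell by 0.64 ± 0.13 (adjusted p = 0.00264). Dhh, the signal of Schwann cells to the perineurium, fell by 0.94 ± 0.17. The glial transcription factor gene Sox10 differed by -0.23 ± 0.17 and was not called. Of 23 genes of cholesterol synthesis 15 were lower and 0 higher (median -0.63, 9 on the summed RPKM scale). Srebf2, their transcription factor, fell by 0.99 ± 0.16.

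Genes of protein folding and sugar metabolism were lower about as often as abundant coding genes in general (57.9%). Of 26 heat shock and unfolded protein response genes 15 were lower and 2 higher (median -0.59, and 11 lower with 3 higher on the summed RPKM scale). Canx, the chaperone calnexin, ranged from 5.22 to 5.97 in the high and from 6.44 to 6.82 in the low libraries and fell by 1.01 ± 0.14. Asns, asparagine synthetase, fell by 1.03 ± 0.19, while Hspe1, the small chaperonin of mitochondria, and Ddit3, a stress transcription factor named after its value was seen, were higher by 1.04 ± 0.16 and 0.59 ± 0.18. Of 26 genes of glycolysis and hypoxia 15 were lower and 2 higher (median -0.55, and 7 lower with 3 higher on the summed RPKM scale). Slc2a3, the neuronal glucose transporter, fell by 1.26 ± 0.20 and Hk1, hexokinase, by 0.95 ± 0.15. The 2 that were higher were named after their values were seen: Ankrd37, a hypoxia target (1.13 ± 0.29), and Gapdh (0.77 ± 0.20). The value of Gapdh is uncertain, since it has many processed copies in the genome and only uniquely mapped reads were counted. Immediate early genes did not move together: of 17 tested, Btg2 was higher by 0.91 ± 0.27, Myc, Jun and Ier3 fell by 0.68 ± 0.13, 0.57 ± 0.13 and 0.78 ± 0.18, and 13 were not called, with 6 higher and 2 lower on the summed RPKM scale. Of 16 p53 target and apoptosis genes 5 were lower and 0 higher (median -0.19), among them Cdkn1a, a cell cycle inhibitor (-0.80 ± 0.15), Zmat3, Bcl2l1 and Bcl2, the last named after its value was seen (-0.43 ± 0.16). On the summed RPKM scale the median of this list turned to 0.06, with 2 higher and 2 lower.

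Nuclear genes for mitochondrial transcription and RNA turnover did not rise as a group. Of 42 tested of 48 listed, 4 were higher, 7 lower and 31 not called, with a median of -0.09 that turned to 0.18, with 7 higher and 0 lower, on the summed RPKM scale. Tfam, which packages mitochondrial DNA and starts its transcription, ranged from 0.80 to 1.45 in the high and from 0.55 to 1.48 in the low libraries, with a difference of 0.10 ± 0.17 (adjusted p = 0.653). Polrmt, the mitochondrial RNA polymerase, differed by -0.49 ± 0.23 (adjusted p = 0.101), and the transcription factor genes Tfb1m and Tfb2m by -0.13 ± 0.14 and -0.05 ± 0.18 (adjusted p = 0.498 and 0.841). The classes overlapped for each of these 4 genes. Those that rose were Ssbp1, which coats single-stranded mitochondrial DNA (1.03 ± 0.14, adjusted p = 0.00054), Nsun4, an rRNA methyltransferase (0.76 ± 0.22), Mterfd1, a factor of mitochondrial ribosome assembly (0.65 ± 0.24), and Pnpt1, an exoribonuclease (0.61 ± 0.21). Those that fell included Lrpprc, which stabilises mitochondrial mRNA (-0.56 ± 0.13), Grsf1 of the mitochondrial RNA granules (-0.52 ± 0.09), the elongation factors Gfm1 (-0.58 ± 0.12) and Tsfm (-0.75 ± 0.18), and Ppargc1a, the coactivator PGC-1alpha (-0.47 ± 0.13). Of these, Tsfm overlaps Avil on the opposite strand, and the other 2 that fell were Fastkd5 (-0.47 ± 0.16) and Ptcd2 (-0.42 ± 0.14). The remaining regulators, such as Nrf1 (0.48 ± 0.21, adjusted p = 0.0766), Gabpa (-0.10 ± 0.13), Polg (0.11 ± 0.18) and Supv3l1 (-0.04 ± 0.25), were not called.

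The nuclear subunits of the respiratory chain went both ways. Of 81 tested of 83 listed, 29 were higher and 12 lower (median 0.21, and 42 higher with 5 lower on the summed RPKM scale). Cox7b, a small subunit of cytochrome c oxidase, ranged from 5.33 to 6.01 in the high and from 4.21 to 5.01 in the low libraries and rose by 1.23 ± 0.13 (adjusted p = 0.000131) without overlap. The small subunit genes Cox7c (1.31 ± 0.19), Cox6c (1.11 ± 0.17), Cox7a2 (1.06 ± 0.13) and Atp5e (1.12 ± 0.17) rose alike. Ndufv1, which holds the NADH site of complex I, fell by 0.95 ± 0.16 (adjusted p = 0.0012), Uqcrc1, a core protein of complex III, by 0.76 ± 0.18, and Atp5b and Atp5a1, the catalytic beta and alpha subunits of ATP synthase, by 0.70 ± 0.16 and 0.65 ± 0.17. The members that rose had a median summed exon length of 1131 bases and a median level of 3.20, and those that fell had 2207 bases and 4.86. Ndufv1, Uqcrc1, Atp5b, Atp5a1 and Atp5e were named after their values were seen.

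Most called ribosomal protein genes were higher. Of 63 tested of 84 listed genes of the cytoplasmic ribosome 37 rose and 1 fell (median 0.53, and 50 higher with 0 lower on the summed RPKM scale). Rps27a, a ubiquitin fusion of the small subunit, ranged from 1.52 to 2.51 in the high and from -0.23 to 0.48 in the low libraries and rose by 1.60 ± 0.20 (3.04-fold, adjusted p = 0.000283). Rps27l (1.52 ± 0.17), Rps25 (1.10 ± 0.16) and Rps24 (1.05 ± 0.14), all of the small subunit, rose without overlap as well. The exception was Rpl24, which fell by 0.46 ± 0.14 (adjusted p = 0.0209). The testis copy Rpl10l was at 0 in the 12 libraries. Most ribosomal protein genes have processed copies elsewhere in the genome, so counts of unique reads understate some of them. Of 74 genes of the mitochondrial ribosome 11 were higher and 3 lower (median 0.03, and 20 higher with 0 lower on the summed RPKM scale), with Mrpl33 (1.60 ± 0.20) and Mrpl13 (0.94 ± 0.16) among those that rose. Mrpl33 overlaps Bre on its strand. The 3 that fell, named after their values were seen, were Mrpl45 (-0.60 ± 0.19), Mrpl36 (-0.44 ± 0.14) and Mrps25 (-0.39 ± 0.12).

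Splicing factors rose in part. Of 48 tested, 16 were higher and 2 lower (median 0.14, and 19 higher with 0 lower on the summed RPKM scale). Clk1, a kinase of splicing factors whose RNA is known to be kept in the nucleus in a partly spliced form, had a median of 3.45 in the high and 1.72 in the low libraries and rose by 1.75 ± 0.17 (3.36-fold, adjusted p = 7.35e-05). Its relative Clk4 rose by 1.47 ± 0.20, Srsf5, a serine-arginine splicing factor, by 1.08 ± 0.15, and Hnrnpl, an RNA-binding repressor of exons, by 1.04 ± 0.12. The 2 that fell, named after their values were seen, were the spliceosome core genes Sf3b2 (-0.54 ± 0.11) and Prpf8 (-0.43 ± 0.11). The classes overlapped for none of the 4 that rose. Replication-dependent histones, whose mRNA lacks a poly(A) tail, were not called in 26 of 27 cases (median -0.24, which turned to 0.05 on the summed RPKM scale), and Hist1h2bn was the exception (1.49 ± 0.33).

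Markers of cells other than neurons and glia were measured for their part in the classes. Cartilage and bone genes were higher in 8 of 10 tested cases and lower in 1 (median 1.19, and 9 higher with 1 lower on the summed RPKM scale), with a summed level of 30.0 to 180.4 RPKM in the high and 30.4 to 60.7 RPKM in the low class, so the sums overlapped. Of the 7 with a low-class mean of at least 0, 5 were higher. Col9a3, a cartilage collagen, rose by 1.09 ± 0.23, and Lect1, a secreted protein of cartilage, fell by 0.79 ± 0.16. Macrophage genes were higher in 7 of 12 cases (10 on the summed RPKM scale, median 0.57, 45.1 to 63.1 RPKM in the low and 61.0 to 115.2 RPKM in the high class), with Fcgr3, an antibody receptor, at 1.29 ± 0.31 and F13a1, a transglutaminase, at 0.81 ± 0.17. Proliferation genes were higher in 6 of 26 cases (10 on the summed RPKM scale, median 0.30), with Tyms, thymidylate synthase, at 1.22 ± 0.25 and Cenpa, the centromeric histone, at 1.16 ± 0.20. No macrophage or proliferation gene was called lower. All of these lists were tested in the same 12 libraries, and their part in the differences of other genes was not tested.

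For other cell types few genes were called, but more were on other scales. Fibroblast and meninges genes were higher in 2 of 21 cases, Mgp and Igf2 (median 0.32, and 621 to 1943 RPKM in the high against 595 to 1050 RPKM in the low class), endothelial genes in 1 of 12 (Emcn, median of the list -0.08), skeletal muscle genes in 1 of 17 (Mylpf, median of the list 0.73) and red cell genes in 1 of 7 (median 0.57). On the summed RPKM scale 8 of the 21 fibroblast genes, 4 of the 17 muscle genes, 5 of the 7 red cell genes and 2 of the 12 endothelial genes were higher and 0 lower, and in the voom fit 15, 9, 6 and 2. The medians of the endothelial and spinal cord lists turned positive on the summed RPKM scale (0.18 and 0.23). The summed level of skeletal muscle genes spread most, from 41.8 to 598.5 RPKM in the high and from 33.8 to 125.0 RPKM in the low class. Alas2, the heme enzyme of red cell precursors, rose by 1.17 ± 0.21, while the globin gene Hbb-b1, a close copy of Hbb-b2, differed by 0.64 ± 0.27 (adjusted p = 0.0695). Of 6 spinal cord genes tested Slc1a3 was higher (0.68 ± 0.24) and Slc5a7 (-0.76 ± 0.27) and Isl2 (-0.90 ± 0.21, also a gene of sensory neurons) were lower, and Nkx2-2, a defining marker, was at 0. The autonomic neuron genes tested were Th, tyrosine hydroxylase, which fell by 1.02 ± 0.28, and Slc18a2, the vesicular monoamine transporter, which was not called (-0.22 ± 0.13). A pair of neutrophil calprotectin genes, named after their values were seen, was higher: S100a8 by 2.83 ± 0.68 and S100a9 by 2.72 ± 0.65, but the classes overlapped for both.

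The direction of coding genes went with their level. In the quintile of lowest mean expression 19.8% of 2308 coding genes were higher and 8.45% lower, with a median of 0.12. In the quintile of highest expression 4.94% were higher and 57.9% lower, with a median of -0.47, and the quintiles between lay in order. By gene length, the quintile with the shortest summed exons had 16.7% higher and 16.3% lower, and the longest 11.3% and 33.3%. By base composition, the quintile of lowest GC content had 14.9% higher and 24.8% lower, and that of highest GC content 5.94% and 34.5%. Genes that resemble mitochondrial DNA in part of their exons could receive reads of mitochondrial RNA. Of the 6 tested genes with such a stretch 5 were higher, by 1.32 to 1.74, among them, named after their values were seen, the pseudogenes Gm13339 (1.32) and Gm13341 (1.74), and Naaa, a lysosomal amidase, was lower (-0.56).

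The 8 libraries in neither class gave a look at the same pattern in libraries that the classes did not use. Donors F3, F8, M1 and M8 each gave 1 library to these 8 and 1 to a class, so the 8 are not independent of the classes. The slope on the score in the 8 libraries passed an adjusted p of 0.05 for 2 genes (0.0149%), SNORD29, an snoRNA, and Gm17622. In this limma fit 1758 genes had an unadjusted p under 0.05. The signs of most called genes were those of the classes. Of the 1740 genes higher in the high class 81.2% had a positive slope in the 8 libraries, against 43.4% of all genes tested, and of the 3767 lower genes 85.6% had a negative slope, against 56.6% of all. The mean of the nuclear-retained RNAs was 3.50 to 5.40 in these 8 libraries, against 5.15 to 5.90 in the high libraries and at most 3.52 in the low libraries, and all 8 lay above the low median. The pan-neuronal mean was 6.03 to 6.86 in them, against 4.81 to 6.24 in the high and 6.30 to 6.87 in the low libraries. Not every list had the sign of its class difference: of 30 lists with at least 5 tested members the median slope had the other sign in 6, namely skeletal muscle (-4.66 per log2 unit of the score), immediate early genes (-0.51), proliferation (-0.38), macrophage (-0.21), fibroblast and meninges (-0.18) and cartilage and bone (-0.04).

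The comparison within an embryo holds genotype, sex and age fixed, but the pair always differs in level as well. In donor F9 the score was 1.14 higher in the sacral than in the lumbar library, in M8 0.84 and in F10 0.39, and in the other 7 donors it was between 0.78 lower and 0.02 higher. The mean of the nuclear-retained RNAs was higher in the sacral library by 1.98 in F9, 1.94 in M8 and 0.79 in F10, and differed by -0.53 to 0.50 in the others. Small nuclear and nucleolar RNA followed with 1.49, 1.46 and 0.85. Pan-neuronal genes were lower in the sacral library by -0.63 in F9, -0.62 in M8 and -0.70 in F10. Among the others F7, whose score fell by 0.42, had the largest pan-neuronal difference (-1.15), so the level of neuronal genes did not follow the score in every embryo. Pan-neuronal genes were lower in the sacral library in 9 of the 10 donors, whichever way the score moved, so for these genes the score and the ganglion level cannot be told apart within embryos. With donor as a fixed term, a slope on the score over the 20 libraries passed for 17 genes, 16 of them positive, with 1840 at an unadjusted p under 0.05. In that fit 98.1% of the higher genes had a positive slope (45.1% of all) and 93.9% of the lower genes a negative one (54.9% of all), but these libraries include those of the classes.

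**Figure D5:**
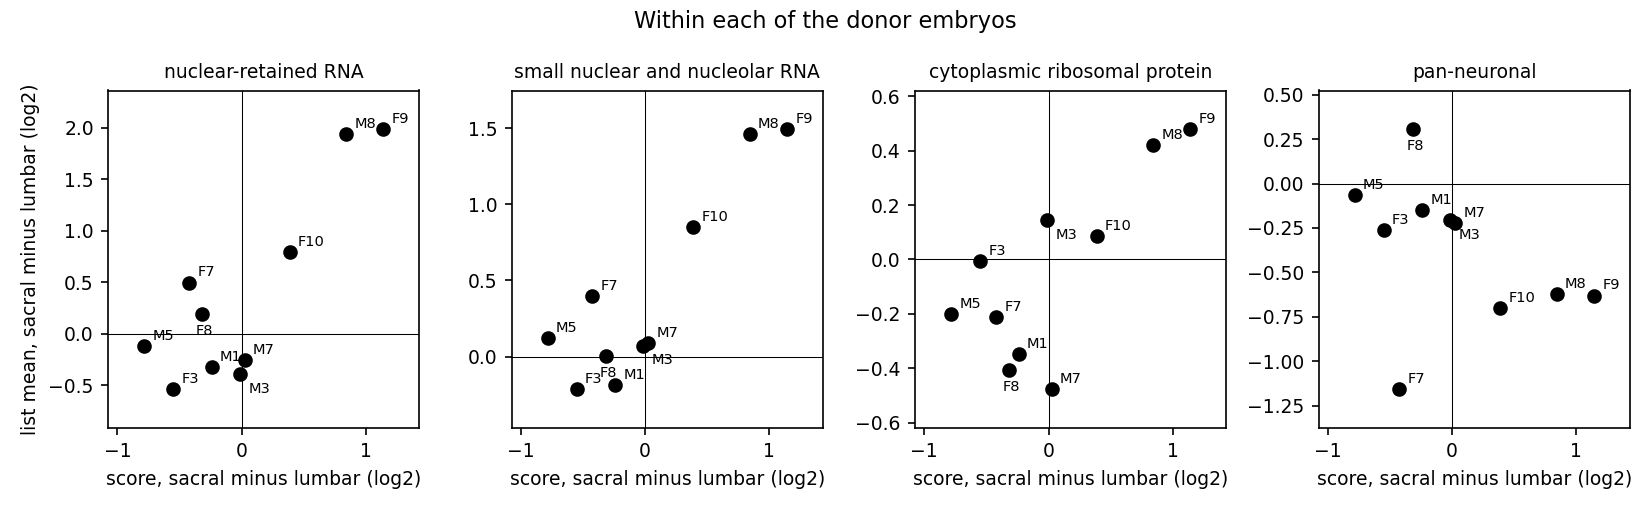
Each point is a donor embryo, with the sacral minus lumbar difference of the score on the x axis and that of the mean log2 RPKM of a gene list on the y axis, for 4 lists. Donors F9, M8 and F10, whose score is higher in the sacral library, have higher nuclear-retained RNA (0.79 to 1.98) and small nuclear and nucleolar RNA (0.85 to 1.49) there, and lower pan-neuronal genes (-0.70 to -0.62).

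No gene passed a test of whether the class difference differed between the levels. Fitted at the lumbar level alone 4054 genes were called (5877 at an unadjusted p under 0.05), and at the sacral level alone 52 (3740). The difference of the effect between the levels was called for 0 of 13462 genes (0%) by limma, and 587 had an unadjusted p under 0.05, so no gene was shown to differ in its effect. The smallest p-values were those of Hoxc8, a homeobox gene of the trunk (a high minus low difference of -0.32 at the lumbar and 1.98 at the sacral level), the predicted gene AL626775.1 (5.14 and 1.39) and the snoRNA gene SNORA4 (4.30 and 0.40), each with an adjusted p of 0.281. The next were Gm10443 and Scarna9, at an adjusted p of 1. Donor F9, low at 1 level and high at the other, is in both arms of this comparison.

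The comparison of the levels that the study was designed for was read with the score in the model and without it. With the score, 1302 genes (9.67%) differed between sacral and lumbar ganglia over the 20 libraries, 510 higher and 792 lower in sacral ganglia. The count was 651 without the lumbar library of M5, 825 without that of F10 and 450 with no replicate block. Without the score the count was 1113 (8.27%), and 1039 genes were called both with and without the score. The median standard error was 0.120 with and 0.126 without the score. The largest level differences were kept: Hoxd11, a homeobox gene of the caudal body, was higher in sacral ganglia by 2.19 ± 0.13 with the score and by 2.19 without it, and its high minus low difference was 0.15 ± 0.18 (adjusted p = 0.536). Hoxd10 (1.77 ± 0.13), the overlapping gene Gm20440 (1.94 ± 0.15) and Cartpt, the precursor of the CART peptides (3.16 ± 0.26), were also higher in sacral ganglia. None of these 4 was called between the high and low libraries. Cdh12, a cadherin of neurons, was lower in sacral ganglia by -2.04 ± 0.17, and it also fell in the high class by 0.82 ± 0.18 (adjusted p = 0.00447).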

How the data were processed

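RNA was sequenced from whole DRG after whole-transcriptome amplification (Ovation RNA-Seq System) and Nextera XT library preparation and HiSeq sequencing. The authors used Subread to align reads to mm9, counted uniquely mapped reads per Ensembl gene with featureCounts, and applied TMM and voom. The deposited values are log2 RPKM. The submitters' processing notes name Subread 1.18 and 1.20.6, edgeR 3.12.1, limma 3.26.9 and R 3.2.1 and 3.2.2. The use of strand is not given in the sources used here.

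The table held 37620 genes, 29049 of them with a value. Reads were recovered from the steps of the values with GENCODE M1 exon lengths, and 98.3% of values were whole within 0.05 of a read, so totals are those of 28324 genes. A blank was set 1 log2 unit below the gene's lowest value, which touched 239 of the 13462 genes tested. Intervals beyond the spread of libraries were not made, because the amplified reads carry no molecular identifiers.

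Genes with a mean log2 RPKM of at least 0 over the 20 libraries, without mitochondrial genes, were fitted with limma 3.58.1 (R 4.3.3, statmod 1.5.0) with class and level as terms, donor as a duplicateCorrelation block (0.222) and eBayes with a trend. Two-sided p-values were adjusted across the whole set of tested genes (Benjamini-Hochberg) and called at 0.05. Values of 1 per library that do not follow from the rule were tested by exact permutation within level, which ignores shared donors, and again with 1 mean per donor, chosen after seeing the data. The scripts were tested on simulated data. The embryo gave both of its libraries, so donor pairs them: deviations of libraries from their group means correlated at 0.0058 to 0.729 within a donor (median 0.311, over 0.1 in 8 of 10) and at a median of -0.0795 between donors. Replicates are single embryos.

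The members, lists and tests were chosen with earlier results of these data known. Named were the 10 largest coding differences and the 5 largest of other types in each direction among called genes without overlap at either level, up to 4 members of each list with the smallest adjusted p, any member of the mitochondrial transcription list, and the 5 smallest p-values of the level fits. Other named genes were chosen after their values were seen. Some genes that this rule takes are not reported here. Coordinates, types and sequences are from NCBIM37 (mm9). All 20 library columns were used.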

Additional observations from a re-analysis of the deposited data

Results flagged for a closer look

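A library was picked out where it lay farther from the other 5 of its class than Dixon's 95% limit allows. This was examined in 334 groups of 6 libraries (167 genes and library measures in 2 classes) and found 30 times, and chance alone gives about 1 in 20 groups. No explanation was tested for any of them.

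The sacral high library of donor F7 accounted for 14 of the 30. It was the lowest of the high class for genes of neurons, with log2 RPKM values of -1.71 for Vgf, 4.77 for Ina, 3.63 for Nefh, 1.41 for Isl2, 3.18 for Sv2c and 2.84 for Cntn1. The same held for the channel subunits Scn8a (1.34), Scn10a (4.08), Kcna1 (1.80) and Chrnb2 (0.53), and for Zmat3, a p53 target, at 3.97. It was the highest of the high class for Ncrna00085, a host of microRNAs, at 5.41. Its share of long intergenic RNAs and processed transcripts was the highest at 7.37%, and its share of protein-coding genes the lowest at 90.1%.

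The sacral low library of donor M1 was the lowest of the low class for the liver protein genes Fgb (-2.97), Alb (1.77) and Ahsg (-0.94) and for Ppargc1a (2.17). The sacral high library of donor F9 was apart for Gm9900 (0.43, the lowest), Jun (3.27), Pcdhb7 (0.59) and Lect1 (3.44, each the highest). F9 had the lowest score of the high class, 17.03.

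The remaining cases were the lumbar low library of M8 for Snord72 (0.12, the highest) and Gfra1 (3.17, the highest), the lumbar high library of F8 for Gm13703 (-2.22, the lowest), Fastkd5 (1.87, the highest) and its total of 39257771 reads, the sacral low library of M3 for Lrpprc (2.55, the highest), the lumbar high library of M5 for Pfkm (1.90, the lowest) and the sacral high library of M5 for Emcn (1.46, the lowest).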

How the results depend on the processing

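The count of 5507 genes stayed within 1.5 times under 2 or 5 libraries per class and level (4850 and 4517), array weights (6330), sex as a term (6038), other filters (3796 of 7209 genes with a mean of at least 2, and 6284 of 17241 without a filter) and no replicate block (6117). It was 4534 to 6161 without 1 library and 3824 (without donor M3) to 6055 (without F9) without 1 donor. With donor as a fixed term in a slope over the 20 libraries, added after seeing the data like the donor and voom fits, it was 17, where the score varies only within embryos. In that fit Slc5a7 turned to 0.0302 and S100a8 to -0.62.

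Of the list medians, the scaling to the summed RPKM turned mitochondrial transcription (0.18), histones (0.0492), p53 targets (0.0644), endothelium (0.18) and spinal cord (0.23), and centring turned spinal cord (0.00731).

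The difference between levels gave 0 to 1 calls without 1 library (1 without sacral F7). The slope in the 8 other libraries gave 1 to 4, with fits without lumbar F10, lumbar M7, sacral F10 or sacral M7 made with no block. The level comparison with the score gave 450 with no replicate block and 651 (without lumbar M5) to 1760 without 1 library, with 825 without lumbar F10. The difference in reads ranged from -3240130 (without lumbar F8, exact permutation p = 0.045) to 730819 without 1 library, and turned with 1 mean per donor and F9 left out (1195196, exact permutation p = 0.886, added after seeing the data) and without lumbar M8 (209383), sacral M5 (400986), sacral F7 (730819), sacral F9 (59904) and sacral F3 (53097). The difference in pseudogene share was 0.124 to 0.213 points without 1 library, past the threshold without sacral M5 (0.203) or sacral F7 (0.213), and 0.156 with 5 libraries per class and level (exact permutation p = 0.0086). The causes were not tested. The 6 libraries per class and fewer nuclear reads in the high class limit the precision.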
